A study of Bos taurus with 2 samples.

Results

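The genes described here are the RNA helicases whose symbol begins with DDX or DHX followed by a digit. This rule found 51 of the 24616 genes listed in each table, 36 with a DDX symbol and 15 with a DHX symbol. The RNA came from seminiferous tubules, the looped channels of the testis in whose wall sperm are made, of a calf 3 months old and of another 9 months old. There was 1 library for each age, and no strain, genotype or treatment is stated for either calf. With 1 library per age no difference has a replicate check, no test between the ages is possible, and every value compares these libraries only. The comparison asks which helicase genes have other RNA levels in the older than in the younger library. It also asks whether members known from germ cells differ otherwise than general ones.

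RNA helicases use the energy of ATP to unwind RNA duplexes or to pull proteins off RNA. The DDX proteins carry a DEAD-box motif and mostly open short stretches of duplex, whereas the DHX proteins carry the related DEAH-box and several of them move along RNA. Most work in every cell, in splicing, ribosome assembly, export, translation and decay of RNA. A few are restricted largely to germ cells, where they sit in germ granules such as the chromatoid body of spermatids. The symbols were taken as the tables give them, and not all of them name an RNA helicase: DDX11 is a DNA helicase of sister chromatid cohesion, and DDX26B is an older symbol of an Integrator-like protein.

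Total counts were 37600534 at 3 months and 29782234 at 9 months. All 51 genes passed the minimum of 10 counts over both libraries. Levels of the same gene are given in CPM, the count relative to the library size after edgeR's trimmed-mean (TMM) scaling. Levels of different genes are compared per length, in TMM-scaled RPKM. Folds between the libraries are followed in brackets by their 95% exact counting interval, which says nothing of differences between animals. A gene is called higher or lower at 9 months when its ratio was 2-fold or more and the interval excluded a ratio of 1.

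The labelled tissue was checked with marker genes. At 9 months all 9 measured markers of spermatocytes and all 9 of spermatids were higher, and their summed expression went from 35.9 to 543 CPM and from 1.53 to 2707 CPM. The spermatid marker ODF1 had 0 counts in the 3-month library. Of 6 spermatogonial markers 3 were higher and 0 lower, with sums of 153 and 430.2 CPM. DAZL, at 28.8 and 304 CPM, made up most of the 9-month sum. KIT, at 86.3 and 55.4 CPM, was the only 1 of the 6 with a ratio below 1. Of 9 Sertoli cell markers 6 were lower and 1 higher, with sums of 8828 and 2109 CPM. All 5 measured Leydig cell markers were lower, with sums of 17615 and 2705 CPM. Leydig cells lie outside the tubules, yet in both libraries their markers had a larger sum than the Sertoli cell markers. Per length the sums were 13251 and 2937 RPKM for Leydig and 5828 and 1299 RPKM for Sertoli cell markers. Sums over different marker genes do not give shares of cells. How much of each library came from outside the tubules was not tested. Of 4 peritubular markers 2 were higher and 1 lower, and of 4 endothelial markers 1 was higher and 3 lower. In bulk tissue, fewer cells of a type and less RNA per cell cannot be told apart, and the part these shifts in cell markers have in the helicase values below was not tested.

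At 9 months 13 of the 51 helicase genes were higher (25.5%), 2 were lower (3.92%) and 36 lay within 2-fold. Over all 18025 measured genes 27.7% were called higher and 23.2% lower by the same rule. The share called higher was thus near that of all genes, whereas the share called lower was smaller. With plain library totals 15 were higher and 0 lower, against 36.2% and 14.7% of all genes, and with upper-quartile factors 11 and 4, against 26.1% and 25.5%. Among genes with at least 1000 counts over both libraries, a threshold that 48 of the 51 passed, 23.3% of all genes were higher and 23.4% lower, against 13 and 1 of the 48. The median log2 ratio of 9 to 3 months was 0.14 for the 51 genes and 0.00 for all measured genes. The 4 germ cell members had a median of 4.76 and the 47 general members one of 0.10.

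**Figure D1:**
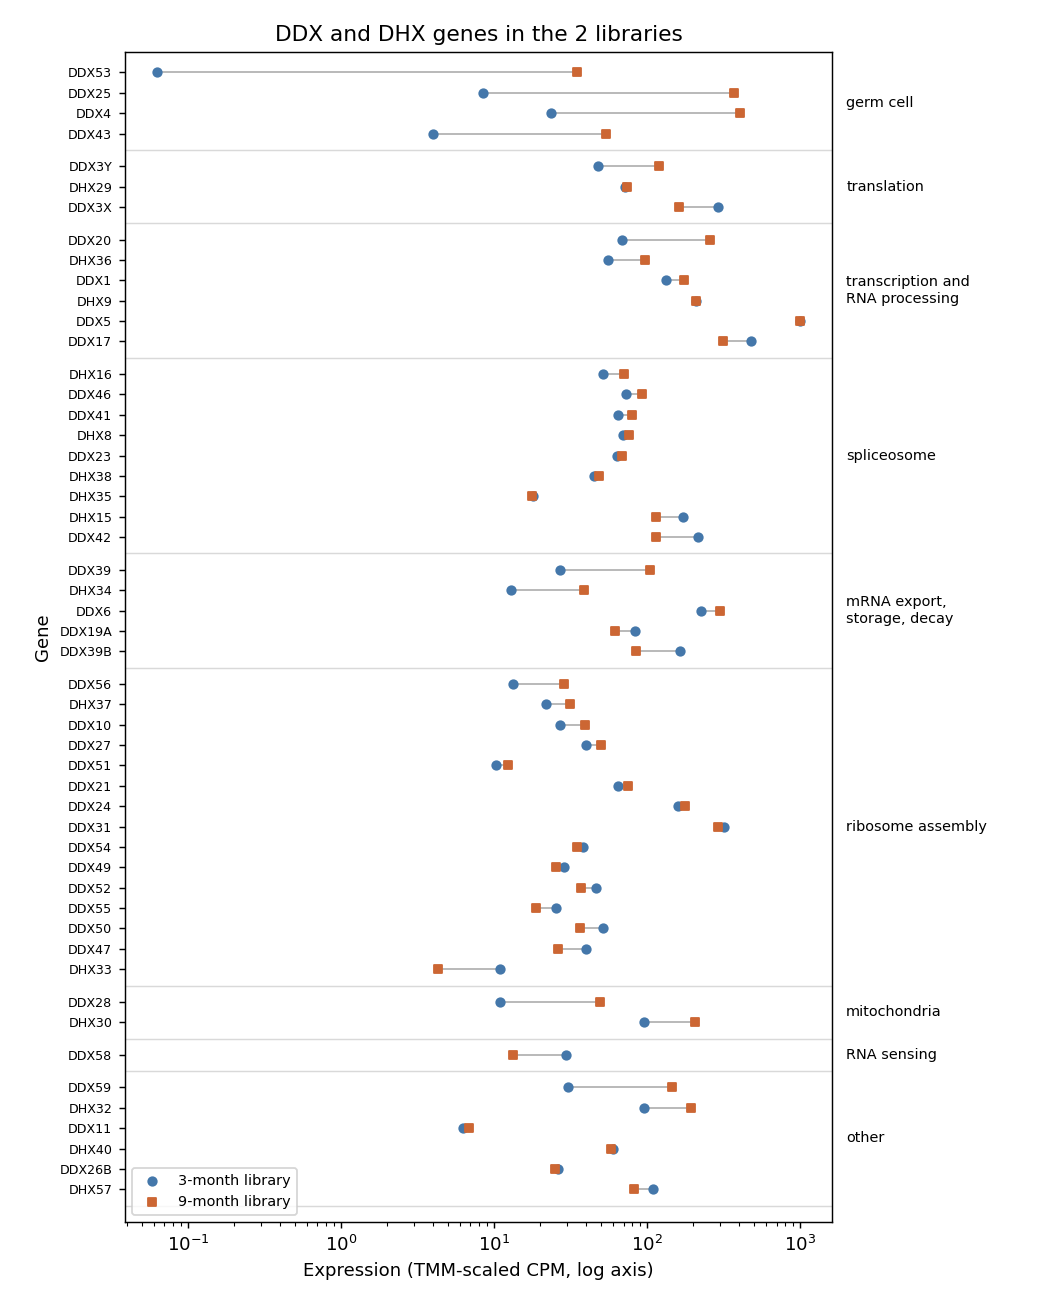
Expression of each of the 51 genes in the 3-month library (circles) and the 9-month library (squares), in TMM-scaled CPM on a log axis, grouped by role. The 4 germ cell genes have the longest connecting lines, while DDX5 and DHX9 have overlapping symbols.

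The 4 germ cell members were DDX4, DDX25, DDX43 and DDX53, and all 4 were at least 4-fold higher at 9 months, a size that 17.5% of all measured genes reached. A further 2 of the 51, DDX59 and DDX28, were as much higher, and 0 were at least 4-fold lower, against 8.79% of all measured genes. DDX4 (ENSBTAG00000008871), the vasa homologue that marks germ cells from early development on, stood at 23.6 CPM at 3 months and 402 CPM at 9 months, from 755 and 14073 counts. It was 17.0-fold higher [15.8 to 18.3]. Of the 4 it was the most abundant per length at 3 months, at 9.66 RPKM, so that RNA of this general germ cell marker was present in both libraries.

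DDX25 (ENSBTAG00000004266), the gonadotropin-regulated testicular helicase needed for spermatid development in mice, stood at 8.42 and 369 CPM, from 269 and 12930 counts. It was 43.8-fold higher [38.8 to 49.6]. Among all 24616 genes its level per length ranked 9864th at 3 months and 248th at 9 months. Within the family it moved from place 45 to place 2, behind DDX5 alone. The gene is also known from Leydig cells, whose 5 measured markers were lower at 9 months. The part of Leydig cells in the DDX25 values was not tested.

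DDX43 (ENSBTAG00000021814), a helicase with an added RNA-binding KH domain that is known as a cancer/testis antigen, stood at 3.97 and 53.6 CPM, from 127 and 1879 counts. It was 13.5-fold higher [11.3 to 16.3]. DDX53 (ENSBTAG00000046635), a related X-linked cancer/testis gene, had 2 counts at 3 months and 1211 at 9 months. These are 0.0626 and 34.6 CPM, a ratio of 552 [152 to 4563], and the 3-month value lay below the floor of 3 counts, or 0.0939 CPM. DDX53 was the only one of the 51 genes near that floor.

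The germ cell members also differed among themselves, in ratios that do not depend on the scaling because both genes come from the same library. Per length, DDX25 was at 0.598 times the level of DDX4 at 3 months and 1.54 times at 9 months, so that the balance shifted 2.58-fold [2.24 to 2.97] towards DDX25. DDX43 was at 0.21 and 0.166 times the level of DDX4, a change by a factor of 0.794 [0.654 to 0.964]. DDX53 was at 0.00355 and 0.115 times, a 32.5-fold shift [8.10 to 130.3] that rests on the 2 counts at 3 months. The balance between DDX4 and DDX43 thus changed least, although its interval too excluded 1.

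Together the germ cell members took 0.951% of the family's summed RPKM at 3 months and 19.5% at 9 months. Their sum went from 17.5 to 464 RPKM, a 26.5-fold ratio, and that of the 47 general members from 1823 to 1918 RPKM, a ratio of 1.05. Shares of all counts in the library amount to scaling by plain library totals in place of TMM, without correction for length. By this measure the germ cell members had 0.00307% (exact binomial interval 0.00289 to 0.00325) and 0.101% (0.0999 to 0.102). The general members had 0.423% (0.421 to 0.425) and 0.626% (0.624 to 0.629). At 3 months 37 of the 47 general genes stood above every germ cell member per length, and at 9 months only DDX5 stood above DDX25.

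**Figure D2:**
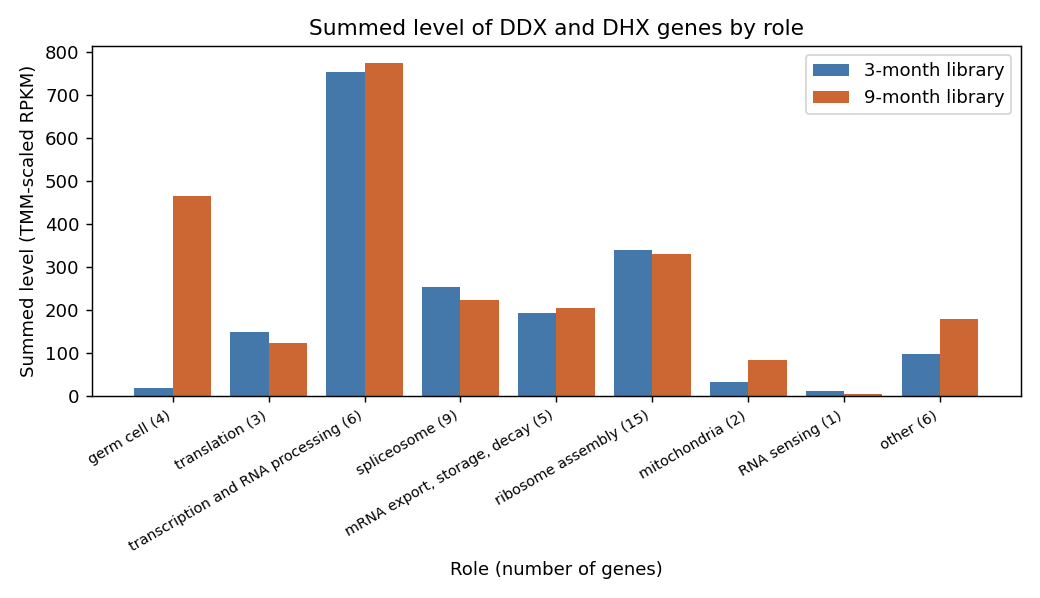
Summed level per length (TMM-scaled RPKM) of the 51 genes by role, with a bar for each library and the number of genes in parentheses. The germ cell bar goes from 17.5 to 464 RPKM, while the bars for transcription and RNA processing, ribosome assembly and the spliceosome are of similar height in both libraries.

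Among the general members, those of transcription, RNA processing and RNA structure were the most abundant. DDX5 (ENSBTAG00000018423), a coregulator of transcription and cofactor of splicing and microRNA processing, had the highest level of the family in both libraries, at 403 RPKM in each, from 31725 and 34772 counts. Its paralog DDX17 stood at 209.7 and 138 RPKM, within 2-fold. The DDX5 to DDX17 ratio per length was 1.92 at 3 months and 2.92 at 9 months, a 1.52-fold shift [1.48 to 1.56]. DDX17 overlaps KDELR3 in the RefSeq annotation of assembly ARS-UCD2.0, and KDELR3 had 2396 and 573 counts and a log2 ratio of -2.19, so the DDX17 value and this shift are uncertain.

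DHX9, which resolves long duplexes and binds many transcripts, was at 208 CPM in both libraries. The direction of DDX5 and DHX9 depended on the scaling, with log2 ratios from -0.12 to 0.47 for DDX5 and from -0.11 to 0.47 for DHX9. DDX1, part of the tRNA ligase complex, stood at 132 and 173 CPM, and DHX36, which unwinds G-quadruplexes, at 55.5 and 96.4 CPM, both within 2-fold.

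DDX20 (ENSBTAG00000018717), the Gemin3 subunit of the SMN complex that assembles spliceosomal snRNPs, was the exception in this group. It stood at 68.5 and 257 CPM, from 2189 and 9017 counts, and was 3.76-fold higher [3.58 to 3.94]. Its direct partner in the complex, GEMIN4, stood at 21.3 and 151 CPM and was 7.06-fold higher [6.52 to 7.66]. The other 6 measured genes of the SMN complex lay within 2-fold, among them GEMIN2 at 6.38 and 4.34 CPM and GEMIN5 at 38.1 and 34.2 CPM.

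Under TMM scaling the 9 spliceosomal helicases all lay within 2-fold, with log2 ratios from -0.90 to 0.44. The same held for 49.1% of all measured genes and 76.6% of the general members. They drive successive rearrangements of the spliceosome. DHX16, which activates it before the first step of splicing, stood at 51.6 and 70.2 CPM, DHX38, which acts before the second step, at 45.0 and 48.1 CPM, and DHX8, which releases the spliced mRNA, at 69.3 and 76.5 CPM. DHX15, which takes apart the spent spliceosome, stood at 172 and 114 CPM. DDX23 stood at 63.8 and 68.3 CPM, DDX46 at 72.1 and 92.3 CPM, DDX41 at 64.4 and 79.0 CPM and DHX35 at 18.1 and 17.7 CPM.

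DDX42 had the largest difference of the group, at 213 and 114 CPM, or 1.86-fold less at 9 months [1.79 to 1.94]. With upper-quartile factors it was called lower. It overlaps FTSJ3 in ARS-UCD2.0, and FTSJ3 went the other way, with a log2 ratio of 0.99. The strand setting of the counting is not given, so reads of the overlapping parts cannot be assigned with certainty.

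Helicases of mRNA export, storage and decay fell on both sides. DDX39 (ENSBTAG00000021820), which RefSeq lists as a synonym of DDX39A, and DDX39B (ENSBTAG00000014490) are close paralogs that load export factors onto mRNA. DDX39 stood at 26.9 and 104 CPM, from 860 and 3635 counts, and was 3.85-fold higher [3.58 to 4.16]. DDX39B stood at 164 and 84.5 CPM, from 5253 and 2962 counts, 1.95-fold less at 9 months [1.86 to 2.04] and just inside the 2-fold limit. Per length DDX39 was at 0.178 times the level of DDX39B at 3 months and at 1.33 times at 9 months, so that the order of the 2 genes was reversed and the balance shifted 7.50-fold [6.87 to 8.18]. How the counting treated reads that fit both paralogs is not given, so each value is uncertain to that extent.

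DHX34, a factor of nonsense-mediated decay, stood at 12.8 and 38.3 CPM and was 2.99-fold higher [2.67 to 3.34]. The gene it overlaps in ARS-UCD2.0, C5AR2, had a log2 ratio of -1.98 from 92 and 24 counts. DDX6, which represses and stores mRNA in P-bodies, stood at 225 and 299 CPM, within 2-fold. DDX19A, which strips export factors from mRNA at the nuclear pore, stood at 83.7 and 61.4 CPM. Its near-identical neighbour DDX19B has no symbol in the tables, so the DDX19A value may hold reads of both.

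The translation group held a second pair of diverging paralogs. DDX3X and DDX3Y are X-linked and Y-linked copies of a helicase that helps ribosomes scan structured leader sequences. DDX3X (ENSBTAG00000035907) stood at 291 and 160.3 CPM, from 9301 and 5618 counts, 1.82-fold less at 9 months [1.76 to 1.88] and within the 2-fold limit. DDX3Y (ENSBTAG00000045750) stood at 47.7 and 119 CPM, from 1525 and 4156 counts, and was 2.48-fold higher [2.34 to 2.64]. Per length DDX3Y went from 0.15 to 0.675 times the level of DDX3X, a 4.51-fold shift [4.22 to 4.83]. The same limit on reads shared between paralogs applies. DHX29, which helps ribosomal subunits pass stable structures, stood at 71.8 and 74.0 CPM.

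Ribosome assembly was the largest group, with 15 genes, and most of them differed little. Of these 13 lay within 2-fold (86.7%), 1 was higher and 1 lower, with a median log2 ratio of -0.14 and summed levels of 339 and 330.1 RPKM. The share within 2-fold was 49.1% for all measured genes and 76.6% for the general members. DDX31 was the most abundant, at 111 and 101 RPKM, and held place 4 of the family at 3 months and place 5 at 9 months. DDX24 stood at 54.8 and 61.5 RPKM. DDX21, which acts on both RNA polymerase I transcription and rRNA processing, stood at 19.8 and 22.9 RPKM, and its paralog DDX50 at 21.4 and 15.0 RPKM. The DDX21 to DDX50 ratio shifted 1.66-fold [1.51 to 1.82] in favour of DDX21.

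DDX56 was the higher gene of this group, at 13.3 and 28.5 CPM, 2.14-fold [1.905 to 2.398]. DHX33 (ENSBTAG00000032083), a nucleolar helicase that promotes rRNA transcription, was the lower one, at 10.9 and 4.28 CPM from 348 and 150 counts, 2.54-fold [2.096 to 3.103]. It had the lowest log2 ratio of the 51 genes, -1.34. DDX47 was next within the group, at 40.0 and 26.0 CPM and 1.54-fold less at 9 months [1.41 to 1.68]. DHX37, DDX10, DDX27, DDX51, DDX54, DDX49, DDX52 and DDX55 ranged from 0.53 for DHX37 to -0.43 for DDX55 in log2 ratio.

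Both mitochondrial helicases were higher. DHX30, which binds mitochondrial transcripts and is needed for mitoribosome assembly, stood at 94.99 and 206 CPM and was 2.17-fold higher [2.08 to 2.27]. DDX28, another factor of mitoribosome assembly, stood at 11.0 and 49.4 CPM and was 4.51-fold higher [4.02 to 5.08]. In ARS-UCD2.0 DDX28 overlaps DUS2, which had 131 and 995 counts and a log2 ratio of 2.77, so the DDX28 value is uncertain.

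DDX58 (ENSBTAG00000003366), the cytosolic sensor RIG-I that starts the interferon response to viral RNA, was the other lower gene, at 29.5 and 13.3 CPM from 943 and 465 counts, 2.22-fold [1.99 to 2.49]. IFIH1, the related sensor MDA5, stood at 28.1 and 15.5 CPM, 1.81-fold less at 9 months [1.62 to 2.01] and within the limit. MAVS, the adaptor of both sensors, stood at 18.6 and 41.8 CPM and was 2.25-fold higher [2.04 to 2.48]. Of 5 leukocyte markers 2 were lower and 1 higher, from C1QB at 183 and 36.7 CPM to AIF1 at 15.8 and 51.6 CPM and none of them at 0 counts, and their part in the DDX58 value was not tested.

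The last 6 genes have other or less settled roles. DDX59 (ENSBTAG00000020563), linked to ciliary signalling in development, stood at 30.5 and 146 CPM, from 974 and 5101 counts, and was 4.77-fold higher [4.46 to 5.12], the largest ratio among the 47 general members. DHX32 stood at 95.7 and 192 CPM and was 2.01-fold higher [1.93 to 2.10]. It overlaps BCCIP in ARS-UCD2.0, which had 1537 and 1440 counts and a log2 ratio of -0.23, so the DHX32 value is uncertain. DHX57, DHX40, DDX26B and DDX11 lay within 2-fold, at 108 and 81.4, 59.5 and 58.3, 26.04 and 25.02, and 6.29 and 6.88 CPM. DDX11, with 201 and 241 counts, overlaps WASHC1, which had 1680 and 7738 counts and a log2 ratio of 2.07, so its value is uncertain.

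**Figure D3:**
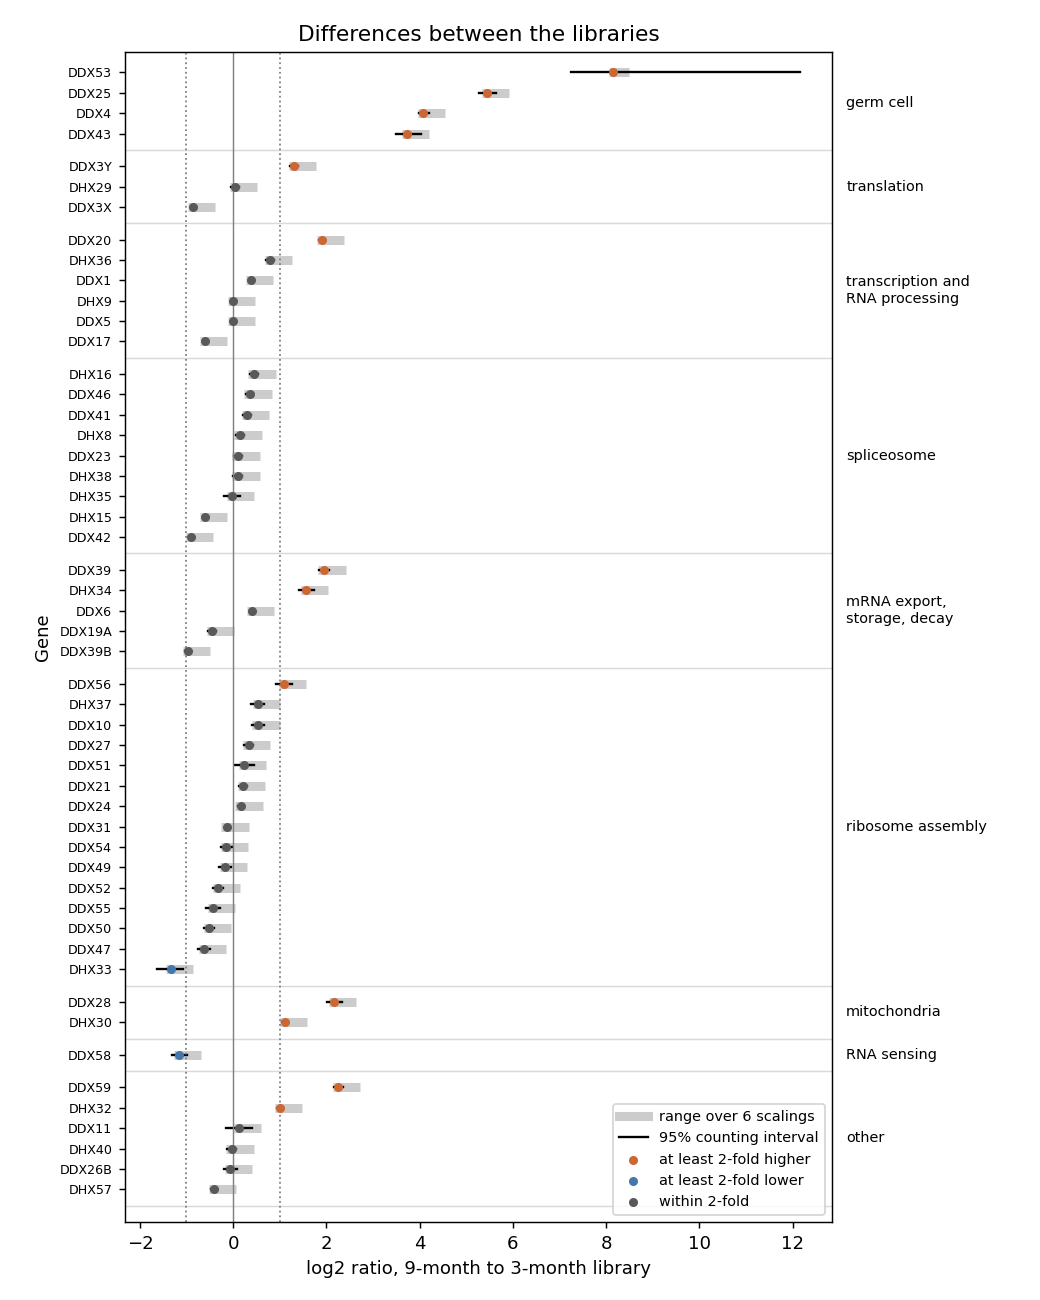
Log2 ratio of the 9-month to the 3-month library for each gene (points, coloured by call), with the 95% exact counting interval (black) and the range over 6 scalings (grey bars). Dotted lines mark 2-fold. The 4 germ cell genes lie at 3.73 or above under TMM scaling, and all general genes lie between -1.34 and 2.25.

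The choice of scaling shifted log2 ratios by 0.47 upwards with plain library totals and by 0.11 downwards with upper-quartile factors, apart from the effect of the prior count. For DDX53, with its 2 counts, the values were 8.50 and 8.06 in place of 8.14. Under all 6 scalings 27 of the 51 genes stayed above a ratio of 1 and 9 below it, and for 15 the direction depended on the scaling. Of the 13 higher genes 11 were called so under every scaling, and DDX56 and DHX32 lost the call with upper-quartile factors. DHX33 and DDX58 lost the lower call with plain totals and with reference genes, so that no gene was called lower under every scaling. DHX36 gained the higher call with plain totals and with reference genes, and DHX37 with plain totals.

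The 47 general members spread less than genes at large. Their log2 ratios had quartiles of -0.36 and 0.49, against -0.92 and 1.204 for all measured genes and -0.93 and 0.89 for genes with at least 1000 counts. Of the general members 76.6% lay within 2-fold, against 49.1% of all measured genes and 53.2% of those with at least 1000 counts. The 4 germ cell members are left out here, while germ cell genes stayed among all genes. All 51 members had quartiles of -0.24 and 0.90, with 70.6% within 2-fold. The 48 members with at least 1000 counts had -0.21 and 1.03, an upper quartile above the 0.89 of all such genes. These are descriptions of the 2 libraries and not tests. The DHX genes and the general DDX genes had similar medians, at 0.10 and 0.11.

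RNA helicases that carry other symbols were described from a list of 25, of which 22 were found and measured. At 9 months 6 of them were higher (27.3%) and 1 lower (4.55%), against 27.7% and 23.2% of all measured genes, so the share of higher genes was that of genes at large. The median log2 ratio was 0.31. With plain totals or reference genes 9 were higher, among them HELZ, SNRNP200 and UPF1. Under these scalings 36.2% and 34.3% of all measured genes were higher. The highest was TDRD9, a DEAH-box helicase of the piRNA pathway, at 5.04 and 160.2 CPM and 31.8-fold higher [27.2 to 37.4]. MOV10L1, which processes piRNA precursors, was 12.6-fold higher [10.8 to 14.7], and its general paralog MOV10 stood at 132 and 111 CPM. TDRD12, another factor of the piRNA pathway, was 4.99-fold higher [4.172 to 6.0004].

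YTHDC2, a germ cell helicase of meiotic entry, stood at 25.2 and 70.9 CPM and was 2.81-fold higher [2.60 to 3.05]. The lower gene was EIF4A2, a translation initiation helicase, at 1071 and 315 CPM and 3.40-fold lower [3.33 to 3.48]. The other eIF4A genes lay within 2-fold, EIF4A1 at 249 and 182 CPM and EIF4A3, of the exon junction complex, at 83.5 and 49.5 CPM. DICER1, which cuts precursors of microRNAs, was 2.21-fold higher [2.12 to 2.31]. In all, 15 of the 22 lay within 2-fold, among them EIF4A1, EIF4A3 and MOV10.

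**Figure D4:**
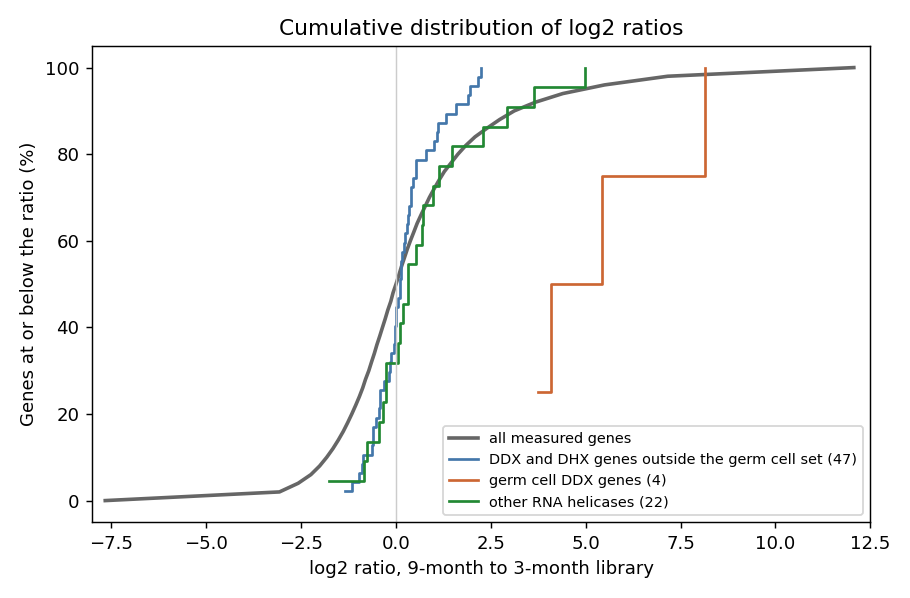
Cumulative share of genes (%) against the log2 ratio of the 9-month to the 3-month library, for all measured genes, the 47 general DDX and DHX genes, the 4 germ cell DDX genes and 22 other RNA helicases. The curve of the general genes is narrower than that of all measured genes, with quartiles of -0.36 and 0.49. The curve of the germ cell genes lies to the right of that of the general genes without overlap. It does overlap that of all measured genes, of which 92% lie at or below 3.67.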

How the data were processed

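RNA from seminiferous tubules of 2 calves was sequenced, 1 library per age. Trimmomatic 0.33, STAR 2.4.0 and the UMD3.1 assembly are named in the submitters' processing notes. How genes were counted, with which annotation, strand setting and rule for multi-mapped reads, is not stated there. The deposited tables have no header, and the unit of each column was inferred. Raw counts per Ensembl gene were deposited without normalization. Another deposited column gives gene length in bases. The deposited RPKM column equals counts per kilobase relative to the table's total to within 0.000496%, and served for this check only.

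Counts were scaled by TMM over all listed genes in edgeR 4.0.16 under R 4.3.3, with factors of 0.85 (3 months) and 1.18 (9 months). Log2 ratios carry a prior count of 2. Folds have 95% exact conditional binomial intervals (scipy 1.17.1, Python 3.11.15). Their computation was checked on counts simulated under the same counting model. That simulation holds no differences between animals, no duplicate reads and no error of scaling, so it does not bear on these. PCR reads without molecular identifiers need not be independent, so intervals and floors cover counting error only. A gene was measured with at least 10 counts over both libraries. No p-value is given, since no replicate exists. DESeq2 1.42.0 served only for alternative size factors.

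The members, roles and lists were chosen with earlier results of these data known. Roles are textbook knowledge, and DDX39 was placed with DDX39A through its RefSeq synonym. By rule, the text gives all germ cell members, the 6 highest and 6 lowest members, the 5 most abundant of each library, the most abundant and most different member of each role and close paralogs, and the 4 highest and 4 lowest of each further list. The remaining members were added to account for all 51. GEMIN2, GEMIN4, GEMIN5, MAVS, MOV10, YTHDC2, DICER1, CNOT1, EDC4, PATL1, DCP2 and EIF4G3 were named after their values were seen. So were DAZL, KIT, C1QB and AIF1 as markers. A gene that the rule takes is not reported here. Overlapping genes were taken from RefSeq on ARS-UCD2.0, in which 49 of the 51 members were found, and 17 of these overlap another gene, of any kind. A protein-coding gene is overlapped by 10 members, DDX46, DHX36, DDX54 and DDX39B among them. The limit on reads of overlapping parts applies to each. No sequences were used here.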

Additional observations from a re-analysis of the deposited data

How the results depend on the processing

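No paired analysis was possible because each age has 1 library, and for the same reason no replicate could be left out. Scaling was the choice that moved most values. With plain library totals 0 genes were lower, and the medians of all members, germ cell members and general members were 0.61, 5.23 and 0.57. Over all measured genes 14.7% were then lower and the median was 0.46. Scaling to reference genes left 0 lower and gave medians of 0.52, 5.14 and 0.47, where all measured genes had 16.1% lower and a median of 0.37. With upper-quartile factors 4 were lower (DDX39B and DDX42 besides DHX33 and DDX58), the median of all members was 0.028, and that of general members turned to -0.016. All measured genes then had 25.5% lower and a median of -0.11. DESeq2 size factors, and TMM over measured genes only (chosen after seeing the data), moved no count by over 1.5 times. With a 4-fold limit 6 were higher and 0 lower, where 17.5% and 8.79% of all measured genes were. All members have more than 50 counts and calls use no prior count, so minimums of 1 or 50 counts and other prior counts could not change a call. The log2 ratio of DDX53 was 8.80 with a prior count of 0.5 and 6.59 with one of 10, in place of 8.14. In counts not corrected for length, the germ cell members took 0.719% of the family's CPM at 3 months and 13.9% at 9 months. Without DDX4 and DDX25, chosen after seeing the data, 11 members were higher. Depth limits DDX53, whose 2 counts at 3 months give an interval of 152 to 4563. Lower partners numbered 1 in place of 4 with plain totals, reference genes or DESeq2 size factors, and 3 with TMM over measured genes only. In that order, 14.7%, 16.1%, 22.2% and 22.8% of all measured genes were lower.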

Other observations

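Partners of the helicases were described from a list of 69, of which 58 were found and measured. At 9 months 15 of them were higher (25.9%) and 4 lower (6.90%), against 27.7% and 23.2% of all measured genes, so the share of higher partners was near that of genes at large. The median log2 ratio was 0.17. The higher ones included all 6 genes of germ granules, among them TDRD6, a scaffold of the chromatoid body, at 5.82 and 205 CPM and 35.2-fold higher [30.5 to 41.0]. TDRD1, which binds PIWI proteins, was 24.2-fold higher [21.0 to 28.1], MAEL, a piRNA pathway protein, 17.8-fold [16.1 to 19.9] and DAZL, a germ cell translation regulator, 10.6-fold [9.87 to 11.3]. DDX4, itself a protein of germ granules, was 17.0-fold higher, and a link between these values was not tested.

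Partners of single general helicases differed within their complexes. Of 7 measured storage and decay partners 3 were higher (42.9%) and 4 lay within 2-fold. Of 6 translation partners 1 was higher (16.7%), 2 were lower (33.3%) and 3 lay within 2-fold. Over all measured genes 27.7% were higher and 23.2% lower. Around DDX6, the scaffold CNOT1 of the CCR4-NOT deadenylase stood at 281 and 1203 CPM and was 4.29-fold higher [4.19 to 4.39], while the decapping enzyme DCP2 stood at 24.9 and 18.9 CPM. EDC4 and PATL1, both of the decapping machinery, were 2.94-fold [2.77 to 3.12] and 2.21-fold [2.11 to 2.31] higher. Among cofactors of eIF4A, EIF4B stood at 978 and 263 CPM and was 3.72-fold lower [3.632 to 3.805], and EIF4G3 was 2.43-fold higher [2.35 to 2.52]. PDCD4, an inhibitor of eIF4A, was 2.03-fold lower [1.92 to 2.15]. The other lower partners were NKRF, at 14.4 and 7.02 CPM, and THOC7 of the THO complex that recruits DDX39B, at 35.5 and 17.6 CPM. PDCD4, NKRF and THOC7 lay just past the 2-fold limit and lost the call with DESeq2 size factors, plain totals and reference genes, and THOC7 also with TMM over measured genes only, whereas EIF4B kept it under all 6 scalings.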
